A study of Rattus norvegicus with 8 samples.

Results

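Oxidative phosphorylation is the last stage of aerobic energy production. In the inner mitochondrial membrane, complexes I (NADH dehydrogenase) and II (succinate dehydrogenase) feed electrons to complex III (cytochrome bc1) and on to complex IV (cytochrome c oxidase), and complex V (ATP synthase) makes ATP from the proton gradient that complexes I, III and IV build. Most subunits are encoded in the nucleus and a few in the mitochondrial genome. Absorptive enterocytes are rich in mitochondria, since nutrient uptake across the brush border runs on ion gradients that ATP-driven pumps maintain.

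The genes described here were those with an array probe set naming 1 gene only whose symbol begins with Ndufa, Ndufb, Ndufc, Ndufs, Ndufv, Sdha, Sdhb, Sdhc, Sdhd, Uqcr, Cox4i, Cox5, Cox6, Cox7, Cox8 or Atp5, each read from its brightest probe set. This gave 90 of the 14217 genes with such a probe set. Of the 90, 84 were bright enough to enter the tests, among 9258 genes tested. There were 77 structural subunits, namely 34 of complex I, 4 of complex II, 7 of complex III, 17 of complex IV and 15 of complex V. The other members were 6 assembly factors of complex I, 4 assembly factors of complex II, the supercomplex factor *Cox7a2l*, the ATP synthase inhibitor *Atp5if1* and the pseudogene *Cox6c-ps1*. *Ndufa4* and *Ndufa4l2*, named after complex I, were counted with complex IV, where the *Ndufa4* protein is known to sit. None of the 13 subunits encoded in the mitochondrial genome had a probe set naming it.

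Epithelial cells were shaken loose from proximal segments of small intestine, and RNA was taken from them in bulk. The donors were Wistar rats aged 4 months. The study's methods give them as female. Rats drank tap water for 3 days (TW), deep-sea water of hardness 1200 for 3 days (DSW1200) or selenium water for 3 days (SeW), or had water withheld for 12 h (WR). Each group had 2 Affymetrix rat expression arrays. The sources did not say whether the 2 arrays held separate rats or pools, so that the p-values below measure only the spread between arrays.

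Signals were quantile normalised across the 8 arrays, which forces the same distribution of signals on each, and differences are given on the log2 scale. A gene was said to rise or fall only where limma's moderated test, adjusted over all 9258 genes by the Benjamini-Hochberg method, gave p under 0.05. An exact permutation test of 2 arrays against 2 cannot go below p = 0.333 and was not used for any member. In bulk RNA, fewer cells of a type and less RNA per cell cannot be told apart. All 13 of the measured enterocyte markers were above the signal filter. RNA state moved with the groups. Signal at the 3' end of beta-actin divided by that at its 5' end, a ratio that grows with RNA breakage or incomplete copying, had a mean of 12.2 on the SeW arrays, 22.4 on the TW arrays, 23 on the WR arrays and 30 on the DSW1200 arrays. The TW arrays correlated less with each other (0.907) than the arrays of any other group did (0.922 to 0.949).

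Promoter sequences are shown for the 2 genes that passed the test in a comparison, *Cox5a* and *Atp5f1e*, and for the 2 members next in order of the F test across the groups, *Uqcrq* and *Ndufa2*. They are RefSeq sequences of build GRCr8, from 250 bases before to 50 bases after the annotated start, written 5′ to 3′ on the strand of the gene. *Cox5a* lies on the plus strand (chr8:66818034-66818333), and *Atp5f1e* (chr3:183680123-183680422), *Uqcrq* (chr10:38089929-38090228) and *Ndufa2* (chr18:28631835-28632134) lie on the minus strand. Capitals mark a match, on either strand, to the letters searched for 4 factors known to bind promoters of respiratory genes.
Cox5a: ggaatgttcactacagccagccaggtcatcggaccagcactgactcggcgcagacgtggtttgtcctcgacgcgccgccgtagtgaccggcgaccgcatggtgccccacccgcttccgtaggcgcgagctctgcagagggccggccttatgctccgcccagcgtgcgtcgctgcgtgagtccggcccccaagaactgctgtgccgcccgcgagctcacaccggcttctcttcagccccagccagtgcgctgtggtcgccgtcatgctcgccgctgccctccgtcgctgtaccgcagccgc
Atp5f1e: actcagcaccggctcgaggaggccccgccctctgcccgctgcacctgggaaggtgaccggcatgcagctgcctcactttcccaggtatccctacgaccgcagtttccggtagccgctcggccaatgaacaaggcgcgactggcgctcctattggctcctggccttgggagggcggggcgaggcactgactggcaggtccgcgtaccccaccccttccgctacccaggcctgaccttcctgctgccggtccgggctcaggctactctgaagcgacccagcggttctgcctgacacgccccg
Uqcrq: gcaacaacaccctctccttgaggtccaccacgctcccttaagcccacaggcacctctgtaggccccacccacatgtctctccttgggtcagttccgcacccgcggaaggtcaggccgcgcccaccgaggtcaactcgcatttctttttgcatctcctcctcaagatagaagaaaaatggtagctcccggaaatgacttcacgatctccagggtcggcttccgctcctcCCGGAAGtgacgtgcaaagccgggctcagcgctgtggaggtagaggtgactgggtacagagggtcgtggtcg
Ndufa2: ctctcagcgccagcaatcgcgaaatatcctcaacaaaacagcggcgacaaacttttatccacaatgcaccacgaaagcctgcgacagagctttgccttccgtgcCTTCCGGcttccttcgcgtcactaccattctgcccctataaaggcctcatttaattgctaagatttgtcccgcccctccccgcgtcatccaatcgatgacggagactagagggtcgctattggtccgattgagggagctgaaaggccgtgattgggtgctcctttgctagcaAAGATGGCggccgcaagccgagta

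The letters were GCGCATGC for nuclear respiratory factor 1, CCGGAAG for the ETS family that includes GABP, AAGATGGC for YY1 and TCAAGGTCA for the estrogen-related receptors. Of the 90 members, 82 had a promoter in the RefSeq table. The ETS letters were found in 25 of the 82 (30.5%, against 9.22% of all 27457 promoters in the table). The YY1 letters were found in 17 (20.7% against 3.44%) and those of nuclear respiratory factor 1 in 9 (11% against 2.66%). The estrogen-related receptor letters were found in 2 (2.44% against 0.412%). In all, 40 of the 82 held a match to any of the 4 (48.8% against 14.5%). *Uqcrq* held the ETS letters, *Ndufa2* held the ETS and YY1 letters, and neither *Cox5a* nor *Atp5f1e* held a match in this window. A match is a run of letters and does not show that a factor was bound.

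Few respiratory genes passed a test across the 4 groups. By limma's F test over the 4 groups, 1 of the 84 tested members differed (*Cox5a*, adjusted p = 0.0404), against 0.616% of all tested genes. At an unadjusted p under 0.05 there were 14 (16.7%, against 17.6% of all tested genes). After quantile normalisation, though not in the deposited signals of WR and SeW, the median member lay below TW in each of the other groups, with log2 differences of -0.13 in WR, -0.08 in DSW1200 and -0.10 in SeW, where the medians of all tested genes were -0.01, -0.02 and -0.04. Scaling moved these medians. In the deposited signals, the median over all tested genes was 0.38 in WR, 0.05 in DSW1200 and 0.92 in SeW. That of the members was lower in each case, at 0.13, -0.03 and 0.75.

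**Figure D1:**
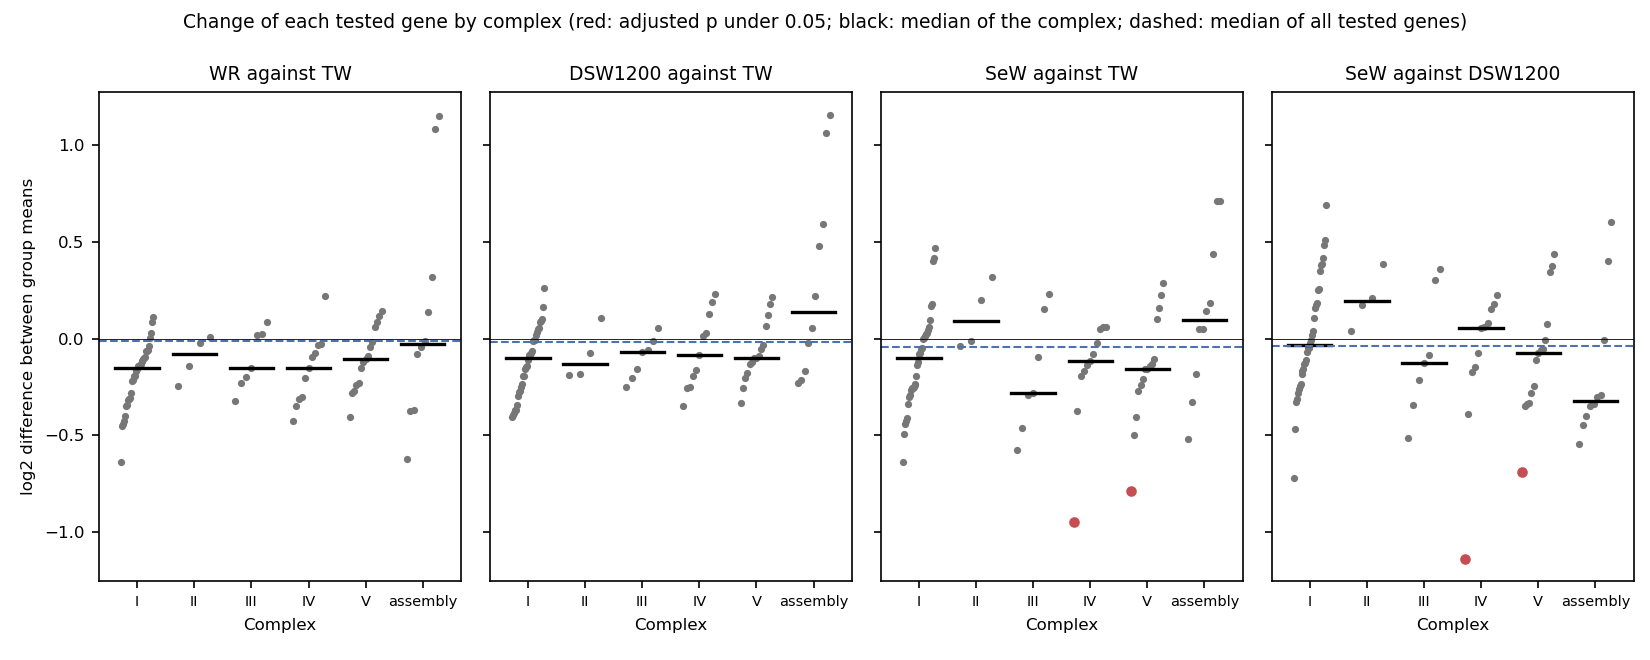
Log2 difference of each tested member between group means (vertical axis), by complex and for the assembly factors of complexes I and II together (horizontal axis), in 4 comparisons; points within a complex are ordered by value. Red points passed limma's test (*Cox5a* and *Atp5f1e* in both SeW comparisons), black bars are medians of a complex and the dashed line is the median of all 9258 tested genes.

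In WR against TW, 66 of the 84 members lay below TW (78.6%, against 51.1% of all tested genes) and 18 above it, where in the deposited signals 21 lay below it. None passed limma's test in either direction, where 0.0108% of all tested genes were called higher and 0% lower. At an unadjusted p under 0.05 there were 11 members (13.1%, against 9.7%), with a smallest adjusted p of 0.373. Both WR arrays lay below both TW arrays for 32 members (background 21.3%) and above them for 5 (background 18.4%). The 5 were *Atp5pb*, *Cox7b*, *Ndufaf4*, *Sdhaf3* and *Sdhaf4*, named after their values were seen. In complex I, 30 of the 34 subunits lay below TW, with a median of -0.15. The median was -0.08 for complex II, -0.15 for complex III, -0.15 for complex IV and -0.11 for complex V. For comparison, 28 of 36 proteasome subunits lay below TW (median -0.13). Of 19 cytosolic ribosomal protein genes, 16 lay above TW (median 0.27). Genes named Rpl followed by digits alone were not in the 19, so most of its names begin with Rps or Rplp or end in a letter. None of the 36 or the 19 passed the test either. The median of the respiratory genes moved to -0.37 when arrays were scaled by their medians, with the median tested gene at -0.12.

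In DSW1200 against TW, 56 members lay below TW (66.7%, against 52.4%) and 28 above, with 48 below it in the deposited signals. None passed limma's test, nor did any of the 9258 genes (0% higher and 0% lower), and 6 members had an unadjusted p under 0.05 (7.14%, against 7.92%). Both arrays lay below both TW arrays for 20 members (background 19.2%) and above them for 7 (background 16.6%). Complex medians ran from -0.13 for complex II to -0.07 for complex III. The assembly factors of complex I had a median of 0.35 and 5 of 6 genes above TW, with *Ndufaf4* and *Ndufaf7*, described below, the highest.

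In SeW against TW, 2 members fell (background 1.11% lower) and 0 rose (background 0.799% higher): *Cox5a* and *Atp5f1e*. Below TW lay 52 members (61.9%, against 53.5%), where in the deposited signals only 1 did, and 19 had an unadjusted p under 0.05 (22.6%, against 19.6%). Both SeW arrays lay below both TW arrays for 34 members (background 29.1%) and above them for 10 (background 22.1%). Complex III had the lowest median (-0.28, with 5 of 7 subunits below TW), followed by complex V (-0.16, 11 of 15), complex IV (-0.12, 8 of 11) and complex I (-0.10, 22 of 34). Complex II was at 0.09, with 2 of 4 subunits below TW. Calls depended on single arrays. Leaving out 1 array leaves 1 array in its group, so only differences are given for such fits. With each array left out in turn, the difference of *Cox5a* from TW in SeW ran from -1.05 to -0.85. That of *Atp5f1e* ran from -0.96 to -0.62.

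In SeW against DSW1200, the same 2 genes fell (background 1.47% lower) and 0 rose (background 1.25% higher). Here 50 members lay below DSW1200 (59.5%, against 53.1% of all tested genes) and 34 above, where in the deposited signals 2 lay below it. The median member was at -0.07 and the median tested gene at -0.04. Of the 84, 22 had an unadjusted p under 0.05 (26.2%, against 20% of all tested genes). The arrays of the groups did not overlap for 32 members lower in SeW (background 29.5%) and 24 higher (background 24.3%). All 4 subunits of complex II lay above DSW1200 (median 0.19) and all 6 assembly factors of complex I below it (median -0.34), but none of these 10 genes passed the test. The median was -0.03 for complex I, -0.13 for complex III, 0.06 for complex IV and -0.08 for complex V. The 3 comparisons with TW share the TW arrays, and both comparisons of SeW share the SeW arrays. Here too, calls depended on single arrays. With each array left out in turn, the difference of *Cox5a* between SeW and DSW1200 ran from -1.20 to -1.08. That of *Atp5f1e* ran from -0.75 to -0.63.

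A change of at least 2-fold was rare. In WR against TW, 2 members reached it (background 4.8%), in DSW1200 against TW the same 2 (background 4.26%), in SeW against TW 0 (background 6.8%) and in SeW against DSW1200 1, *Cox5a* (background 6.2%). The 2 members in the first pair were *Ndufaf4* and *Ndufaf7*, whose TW arrays lay far apart.

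**Figure D2:**
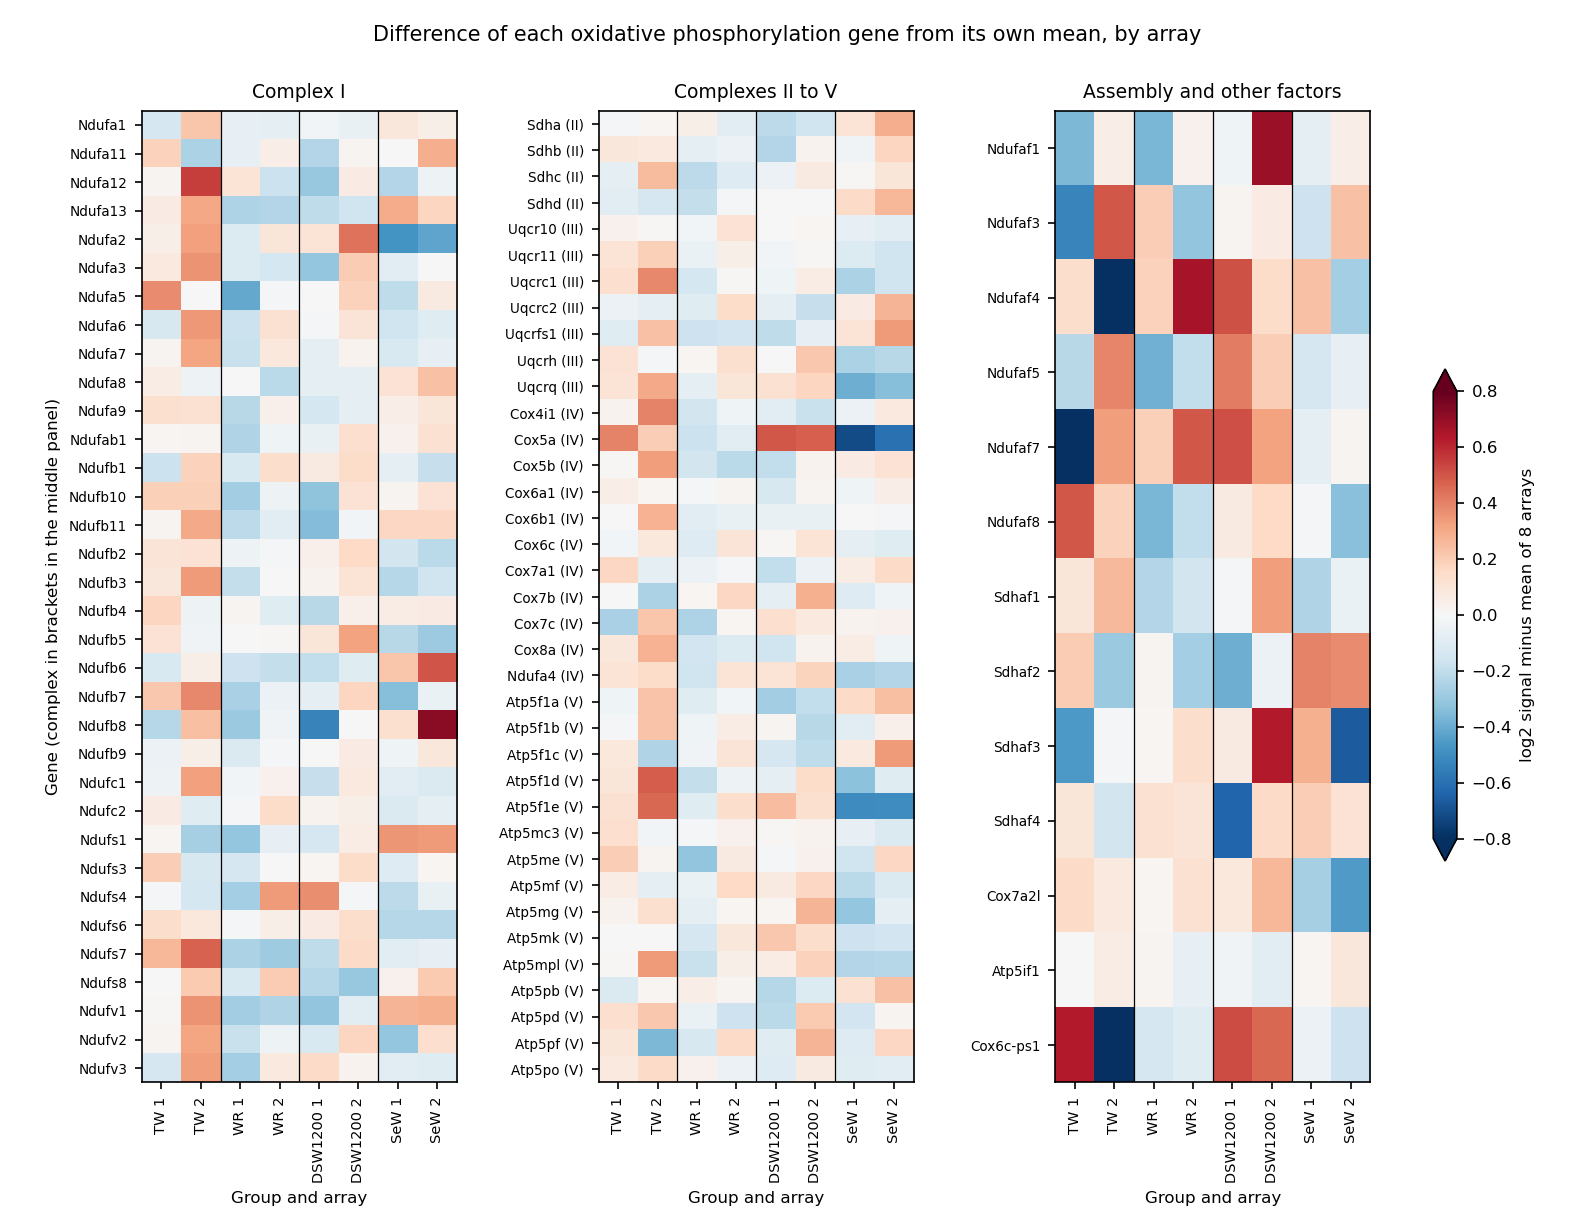
Each row is 1 of the 84 tested members and each column 1 array, grouped by TW, WR, DSW1200 and SeW. Colour gives the log2 signal minus the gene's own mean over the 8 arrays, with colours capped at 0.8 in either direction. *Cox5a*, *Atp5f1e*, *Uqcrq* and *Ndufa2* are blue on both SeW arrays, and many complex I rows are red on the second TW array.

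*Cox5a* encodes a nuclear-encoded subunit of cytochrome c oxidase. Its signal was 229 and 199 in TW, 154 and 163 in WR, 244 and 241 in DSW1200, against 106 and 115 in SeW. The SeW arrays lay below all others and the WR arrays below TW and DSW1200. The level in SeW was 0.517 of that in TW (log2 difference -0.95, SE 0.16, adjusted p = 0.0293) and 0.454 of that in DSW1200 (log2 difference -1.14, adjusted p = 0.0146, limma). In WR the difference from TW was -0.43 (adjusted p = 0.498) and in DSW1200 it was 0.19 (adjusted p = 0.727). In the deposited signals, before any scaling, the *Cox5a* difference of SeW from TW was 0.02 and that of the median tested gene 0.92.

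A further probe set, shared by *Cox5a* and LOC100361008 and therefore not a member, did not show this pattern. Its signal was 2594 and 2829 in TW, 2406 and 2507 in WR, 2625 and 2636 in DSW1200, with 2530 and 2785 in SeW. The SeW arrays overlapped those of TW and DSW1200. Its log2 difference was -0.03 in SeW against TW and 0.01 in SeW against DSW1200. The fall of *Cox5a* was thus seen with 1 of the 2 probe sets that name it, and why they differ was not tested.

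**Figure D3:**
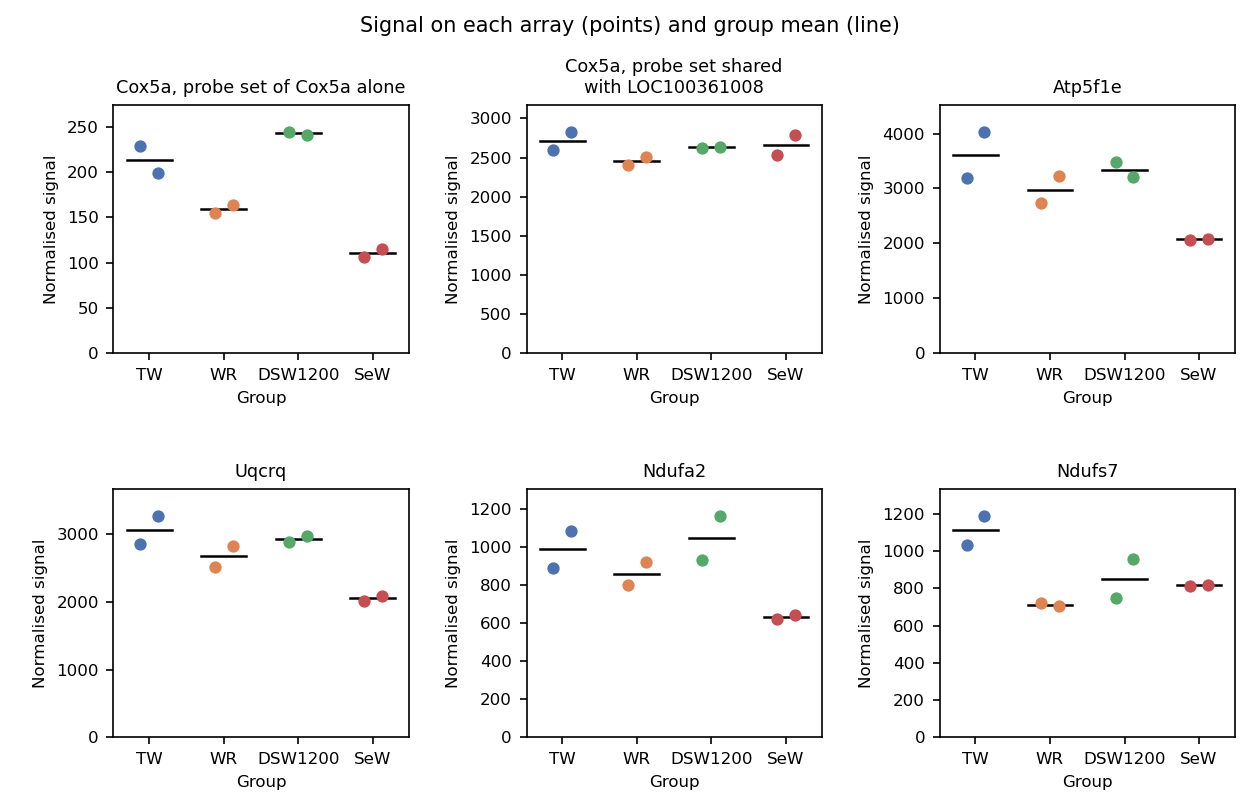
Normalised signal (linear axis from 0) on each array for *Cox5a* by its own probe set, for the probe set it shares with LOC100361008, and for *Atp5f1e*, *Uqcrq*, *Ndufa2* and *Ndufs7*. Points are arrays and lines are means of 2 arrays. The SeW points are lowest in the *Cox5a*, *Atp5f1e*, *Uqcrq* and *Ndufa2* panels, and lie among the others for the shared probe set.

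After quantile normalisation the complex I subunits lay lower than TW more often than not in every group, and none passed the test in any comparison. *Ndufa2*, an accessory subunit of the arm that takes electrons from NADH, had the smallest F test p of the complex. Its signal was 889 and 1083 in TW, 797 and 920 in WR, 929 and 1163 in DSW1200, against 619 and 642 in SeW. Both SeW arrays lay below all others, and the WR arrays lay below those of DSW1200. The log2 difference in SeW was -0.64 against TW (adjusted p = 0.0799) and -0.72 against DSW1200 (adjusted p = 0.0540, limma).

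*Ndufs7* carries the last iron-sulfur cluster before ubiquinone. Its signal was 1034 and 1190 in TW, 721 and 705 in WR, 745 and 956 in DSW1200, with 812 and 820 in SeW. The TW arrays lay above all 6 others, and the WR arrays lay lowest. Its difference of -0.64 in WR was the lowest of any member in that comparison (SE 0.16, adjusted p = 0.373), and it was -0.39 in DSW1200 and -0.44 in SeW.

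*Ndufv1*, which binds the NADH and the flavin, had signals of 501 and 639 in TW, 412 and 422 in WR, 400 and 468 in DSW1200, with 603 and 608 in SeW. The WR and DSW1200 arrays lay below those of TW and SeW. Its difference from TW was -0.44 in WR, -0.39 in DSW1200 and 0.10 in SeW. Between SeW and DSW1200 it was 0.48 (adjusted p = 0.148, limma). Among the name series of complex I, Ndufa genes had 11 of 12 members below TW in WR (median -0.21), Ndufb genes 10 of 11 (-0.14), Ndufs genes 5 of 6 (-0.08) and Ndufv genes 3 of 3 (-0.28), and the 2 Ndufc genes lay on either side.

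The assembly factors of complex I help to build the complex and are not part of it. *Ndufaf4* had signals of 56.1 and 16.7 in TW, 57.7 and 80.4 in WR, 72.4 and 56.4 in DSW1200, with 59.9 and 42.1 in SeW. *Ndufaf7*, a methyltransferase that modifies a complex I subunit, had 4.13 and 18.2 in TW, 16.5 and 20.5 in WR, 20.7 and 18.1 in DSW1200, with 13.8 and 14.7 in SeW. In both genes 1 TW array was far below the other 7 arrays of the series, the second for *Ndufaf4* and the first for *Ndufaf7*. Their differences from TW were 1.15 and 1.08 in WR and 1.06 and 1.16 in DSW1200, with standard errors of 0.47 and 0.59, and the smallest of these adjusted p was 0.4997. *Ndufaf8* had 115 and 92.8 in TW, 63.4 and 71.2 in WR, 85.7 and 90.9 in DSW1200, with 80.6 and 64.6 in SeW. All 6 other arrays lay below TW, by -0.62 in WR (adjusted p = 0.453) and -0.52 in SeW (adjusted p = 0.201).

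Complex II is also an enzyme of the citric acid cycle and has no subunit from the mitochondrial genome. *Sdha*, the flavoprotein, had signals of 1438 and 1461 in TW, 1495 and 1366 in WR, 1254 and 1296 in DSW1200, with 1565 and 1768 in SeW. *Sdhd*, a membrane anchor, had 1429 and 1377 in TW, 1325 and 1505 in WR, 1510 and 1510 in DSW1200, with 1679 and 1816 in SeW. In both genes the SeW arrays lay above all others. A further, dimmer probe set of *Sdhd* did not show this, with 660 and 788 in TW, 609 and 680 in WR, 544 and 581 in DSW1200, against 711 and 815 in SeW, and differences from TW of -0.36 in DSW1200 and 0.08 in SeW. By the probe sets used, the differences of SeW from TW were 0.20 for *Sdha* (adjusted p = 0.441) and 0.32 for *Sdhd* (adjusted p = 0.221), so that neither passed the test. *Sdhb*, the iron-sulfur protein, was at -0.01 in SeW and *Sdhc*, the other anchor, at -0.04. Of the complex II assembly factors, *Sdhaf2*, which attaches the flavin to *Sdha*, had 112 and 78.8 in TW, 98.3 and 80.3 in WR, 74 and 93.9 in DSW1200, with 128 and 126 in SeW. Its difference from DSW1200 was 0.61 in SeW (adjusted p = 0.178), and *Sdhaf1* was at -0.30 and *Sdhaf3* at -0.54 in the same comparison.

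In complex III, *Uqcrq*, a small accessory subunit, had signals of 2863 and 3275 in TW, 2520 and 2829 in WR, 2888 and 2981 in DSW1200, against 2018 and 2092 in SeW. The SeW arrays lay below all others. The log2 difference in SeW was -0.58 from TW (adjusted p = 0.0545) and -0.51 from DSW1200 (adjusted p = 0.0662, limma), just outside the threshold. *Uqcrc1*, a core subunit, had 2073 and 2460 in TW, 1713 and 1898 in WR, 1840 and 1961 in DSW1200, against 1585 and 1688 in SeW. The TW arrays were highest and the SeW arrays lowest, with no overlap, and the SeW difference from TW was -0.47 (adjusted p = 0.113). *Uqcrh*, the hinge protein, had 3516 and 3223 in TW, 3275 and 3548 in WR, 3242 and 3768 in DSW1200, against 2724 and 2777 in SeW, a difference of -0.29 from TW (adjusted p = 0.251). *Cyc1*, which supplies cytochrome c1 to the same complex but falls outside the symbol rule, was at 0.11 in SeW against TW (adjusted p = 0.770).

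Complex IV has tissue isoforms. The forms known mainly from other tissues, such as muscle, testis and lung, were dim. *Cox4i2*, *Cox6a2*, *Cox6b2*, *Cox7b2*, *Cox8b* and *Ndufa4l2* had signals between 1.00, the floor, and 6.34 on every array, and were not tested. Their widely expressed counterparts were measured on all arrays, and none passed the test in any comparison. *Cox4i1* had signals of 2406 and 3113 in TW, 2130 and 2308 in WR, 2214 and 2085 in DSW1200, with 2286 and 2498 in SeW. The WR and DSW1200 arrays lay below TW, by -0.30 and -0.35. *Cox6a1* was at -0.03 in WR, -0.08 in DSW1200 and -0.02 in SeW, *Cox6b1* was at -0.21 in WR and -0.14 in SeW, and *Cox8a* at -0.31 in WR and -0.17 in SeW. *Cox7a1*, known as the heart and skeletal muscle form, was measured on all arrays. It had 606 and 514 in TW, 524 and 535 in WR, 473 and 524 in DSW1200, with 565 and 601 in SeW. *Ndufa4* had 972 and 1000 in TW, 807 and 973 in WR, 972 and 1020 in DSW1200, with 754 and 768 in SeW, where its difference from TW was -0.37 (adjusted p = 0.188). *Cox5b* was at -0.35 in WR and -0.08 in SeW.

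*Cox7a2l* helps to join complexes III and IV into supercomplexes. Its signal was 659 and 624 in TW, 599 and 644 in WR, 628 and 711 in DSW1200, against 492 and 433 in SeW. Both SeW arrays lay below all others. The difference was -0.47 from TW (adjusted p = 0.123) and -0.54 from DSW1200 (adjusted p = 0.0897, limma). The pseudogene *Cox6c-ps1* had 30.4 and 8.63 in TW, which spanned the values of all other groups.

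In complex V, *Atp5f1e*, the epsilon subunit of the rotor stalk, had signals of 3186 and 4032 in TW, 2733 and 3223 in WR, 3480 and 3201 in DSW1200, against 2063 and 2078 in SeW. The SeW arrays lay below all others, and the other 3 groups overlapped. The level in SeW was 0.578 of that in TW (log2 difference -0.79, SE 0.15, adjusted p = 0.0352) and 0.62 of that in DSW1200 (log2 difference -0.69, adjusted p = 0.0453, limma). Its F test over the 4 groups gave an adjusted p of 0.0840.

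*Atp5f1a*, a catalytic-head subunit, had 1749 and 2096 in TW, 1677 and 1768 in WR, 1479 and 1560 in DSW1200, with 1994 and 2118 in SeW. The DSW1200 arrays lay below all others, with a difference of -0.33 from TW (adjusted p = 0.617) and of 0.44 in SeW against DSW1200 (adjusted p = 0.121). *Atp5f1d*, the delta subunit of the same stalk, had 1635 and 2142 in TW, 1342 and 1490 in WR, 1456 and 1691 in DSW1200, with 1222 and 1432 in SeW, a difference of -0.50 from TW in SeW (adjusted p = 0.149). *Atp5mc3*, which encodes the c subunit of the membrane ring, lay between -0.14 and -0.03 of TW in the other groups. *Atp5if1*, which blocks ATP hydrolysis by the enzyme, had differences from TW of -0.05 in WR, -0.09 in DSW1200 and 0.02 in SeW. Its 2 dimmer probe sets were at 0.60 and 0.98 in DSW1200.

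In SeW, 11 of the 15 subunits of complex V lay below DSW1200 (73.3%, against 53.1% of all tested genes) and 4 above it. The arrays did not overlap for 7 of the 15 (background 29.5%), which were lower in SeW (*Atp5f1d*, *Atp5f1e*, *Atp5mc3*, *Atp5mf*, *Atp5mg*, *Atp5mk* and *Atp5mpl*), and for 3 (background 24.3%), which were higher (*Atp5f1a*, *Atp5f1c* and *Atp5pb*). Except for *Atp5f1e*, these genes did not pass the test. They are named after their values were seen. *Atp5f1c*, the gamma subunit, was at 0.38 and *Atp5pb*, of the peripheral stalk, at 0.35, while *Atp5mk* and *Atp5mpl*, small proteins of the membrane part, were at -0.34 and -0.35.

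The genes around the respiratory chain gave few calls. In the citric acid cycle and pyruvate dehydrogenase, 1 of 14 genes rose in SeW against TW (background 0.799%) and 0 fell (background 1.11%). This was citrate synthase (*Cs*), with signals of 1569 and 1516 in TW, 1683 and 1925 in WR, 1722 and 1633 in DSW1200, against 2380 and 2449 in SeW (log2 difference 0.65, adjusted p = 0.0397). *Ogdh* was at 0.43 (adjusted p = 0.116) and *Idh3b* at 0.37 (adjusted p = 0.28). The median of the 14 was 0.11 in SeW, while that of the respiratory members was -0.10.

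Of 15 regulators of mitochondrial biogenesis, 1 rose in SeW against DSW1200 (background 1.25%) and 0 fell (background 1.47%). *Ppargc1a*, a coactivator of respiratory genes, had signals of 100 and 106 in TW, 81.7 and 96.5 in WR, 54.4 and 68.8 in DSW1200, with 114 and 145 in SeW (log2 difference 1.07, adjusted p = 0.0348). The DSW1200 arrays were lowest and the SeW arrays highest. *Yy1* was at -0.56 (adjusted p = 0.104) and *Polg*, the mitochondrial DNA polymerase, at -0.40 (adjusted p = 0.406) in the same comparison. Of 30 assembly factors with symbols outside the rule, 1 rose in SeW against DSW1200 (against the same background): *Lrpprc*, which stabilises mitochondrial mRNAs, with signals of 130 and 170 in TW, 122 and 139 in WR, 82.5 and 98.4 in DSW1200, with 209 and 160 in SeW (log2 difference 1.02, adjusted p = 0.0418). *Foxred1*, a complex I assembly factor, was at 1.19 (adjusted p = 0.0648), and *Ttc19*, which acts on complex III, at -0.32 (adjusted p = 0.362).

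None of the 6 genes for transport of ATP, phosphate and protons passed limma's test. In SeW against DSW1200, 2 had an unadjusted p under 0.05 (33.3%, against 20% of all tested genes). In the other comparisons 0 did (background 9.7% in WR, 7.92% in DSW1200 and 19.6% in SeW against TW). *Slc25a3*, the phosphate carrier, was at 0.27 in SeW against TW, *Vdac2* at 0.26 and *Slc25a5*, an ATP/ADP carrier, at 0.00. None of 7 mitochondrial antioxidant enzymes passed. In each SeW comparison 1 had an unadjusted p under 0.05 (14.3%, against the same backgrounds), and in the others 0 did. *Gpx4* was at -0.69 in SeW against TW (adjusted p = 0.0786), *Prdx3* at -0.35 and *Gpx1* at -0.20.

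Cell markers moved with the groups too. The summed signal of the enterocyte markers was 42990 to 46200 in TW, 40450 to 41720 in WR, 43120 to 44180 in DSW1200 and 48750 to 51060 in SeW, with 11 of 13 markers above TW in SeW. The summed signal of the 12 lymphocyte markers was 397 to 513 in TW, 565 to 601 in WR, 546 to 605 in DSW1200 and 328 to 339 in SeW. All 9 tested lymphocyte markers lay below TW in SeW, and 2 of the 9, *Gzma* and *Gzmb*, fell in SeW against DSW1200 (background 1.47% lower). Of 10 tested myeloid markers, 9 lay below TW in SeW. The summed signal of the crypt proliferation markers was 440 to 612 in TW, 585 to 747 in WR, 349 to 392 in DSW1200 and 573 to 765 in SeW, with *Lgr5* under the filter on all arrays. All 9 tested crypt markers lay above TW in WR (median 1.14) and in SeW (median 1.10). In DSW1200 8 of 9 did (median 0.59), and the other was at -0.80, with arrays not overlapping. The sum, in which bright genes weigh more, lay below TW in DSW1200. In WR, where most respiratory genes lay below TW, 8 of 9 lymphocyte markers (median 0.34) and 7 of 10 myeloid markers (median 0.52) lay above TW. So did 8 of 9 fibroblast markers (median 0.57) and the 4 tested of 10 measured pancreatic acinar markers (median 1.96). Below TW lay 10 of 13 enterocyte markers (median -0.07). None of these or of the crypt markers passed limma's test in WR. In that order 2, 4, 2, 1 and 1, and 5 crypt markers, had an unadjusted p under 0.05. These were 22.2%, 40%, 22.2%, 25%, 7.69% and 55.6% of the tested markers, against 9.7% of all tested genes. The summed signal of all 10 acinar markers overlapped, at 47.3 to 193 in TW and 120 to 621 in WR. None of the tested goblet and Paneth (7), fibroblast (9), smooth muscle (6) or pancreatic acinar (4) markers passed limma's test in SeW against TW. Their medians were -0.16, 0.17, 0.52 and -0.87. At an unadjusted p under 0.05 there were 1, 0, 1 and 0 (14.3%, 0%, 16.7% and 0%, against 19.6% of all tested genes). The part of these markers in the results above was not tested.

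When the log2 ratio of beta-actin 3' to 5' signal entered the fit, an alternative added after the data were seen, 0 members passed the F test or either SeW comparison, as did 0 of all genes. The differences of *Cox5a* and *Atp5f1e* in SeW against TW were -0.86 (adjusted p = 0.603) and -0.77 (adjusted p = 0.601) in that fit, and the median member was at -0.24. The ratio was lower on both SeW arrays than on the other 6 arrays.

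**Figure D4:**
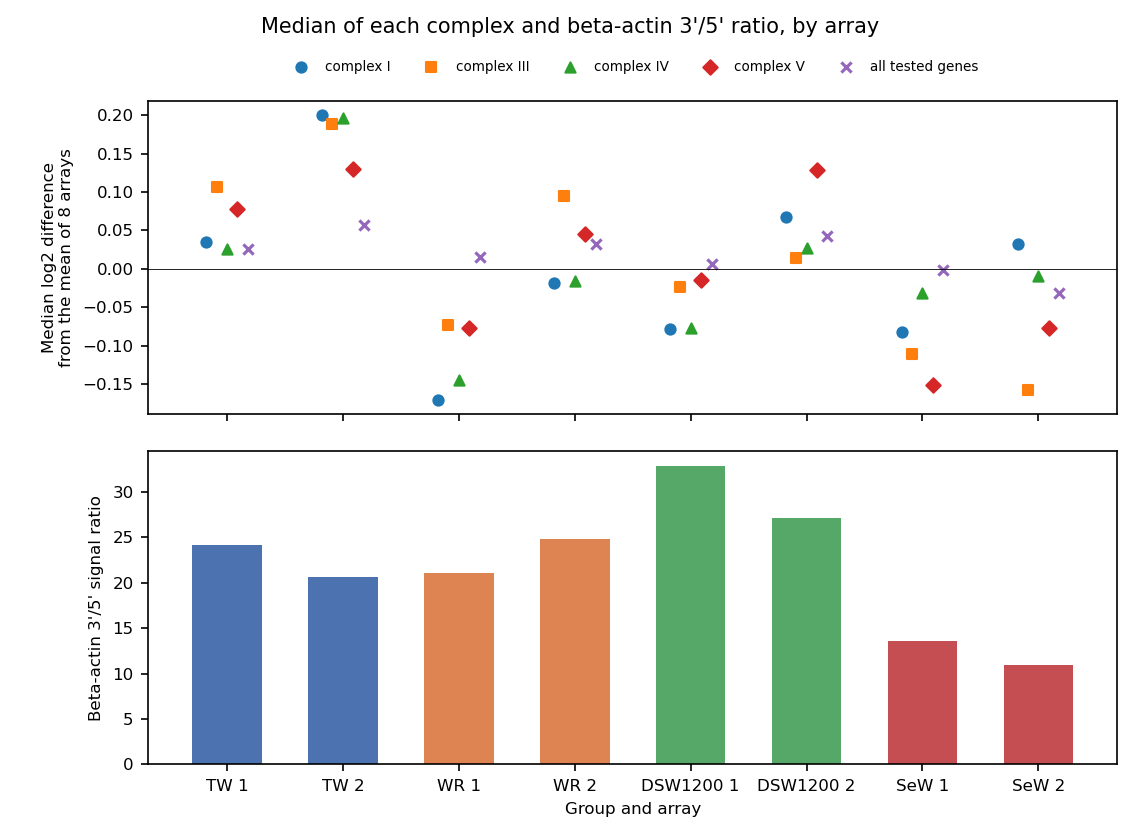
Upper panel: median over the tested genes of complexes I, III, IV and V, and over all tested genes, of the log2 signal minus each gene's mean of 8 arrays. Lower panel: beta-actin 3'/5' signal ratio of each array. Complex medians were highest on the second TW array (0.13 to 0.20) and the ratio was lowest on the SeW arrays (10.9 and 13.6).

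Arrays of 1 group differed in their complex medians too. The complex I median was 0.03 and 0.20 on the TW arrays, -0.17 and -0.02 on the WR arrays, -0.08 and 0.07 on the DSW1200 arrays, and -0.08 and 0.03 on the SeW arrays, as log2 differences from the mean of the 8 arrays. The WR arrays, and by a narrow margin the SeW arrays, lay below both TW arrays, and the DSW1200 arrays overlapped them. The complex III median lay at 0.11 and 0.19 in TW and at -0.11 and -0.16 in SeW, and complex V at 0.08 and 0.13 in TW and at -0.15 and -0.08 in SeW. Of 10 members with several probe sets, 5 had at least 2 above the signal filter, and in these all probe sets had the same sign in 3 in WR, 1 in DSW1200 and 2 in SeW against TW.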

How the data were processed

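Each of the 8 samples was hybridised to 1 Affymetrix rat expression array. The authors deposited linear MAS5 intensities, 1 for each probe set and array; the MAS5 version and scaling target were not given in the sources used here. The methods name quantile normalisation, but array medians of the deposited intensities still ranged from 4.3 to 11.1, so the 31099 probe sets were quantile normalised here, floored at 1 and put on the log2 scale. Of these, 20826 named 1 gene in the platform annotation, 436 named several and 9837 none. Of the member probe sets, 7 named several genes and were left out.

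Genes with a mean signal above the median probe set (6.69) were tested with limma 3.58.1 in R 4.3.3, by group means over all 8 arrays with a trended prior and 4 residual degrees of freedom, and p-values were adjusted by the Benjamini-Hochberg method. The fit was checked on simulated data. Array number, not counting depth, limits the precision. The members, the pathway and marker lists, and the tests were chosen with earlier results of these data known. Named genes were members past adjusted p 0.05, up to 3 per complex or class and per pathway list by F test p, the tissue isoforms, *Atp5if1*, the Sdh subunits and the dim members. Promoter windows came from RefSeq, build GRCr8. Alternatives changed the scaling, filter, offset, probe set rule, prior, arrays and replicate block.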

Additional observations from a re-analysis of the deposited data

Results flagged for a closer look

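A probe set shared by *Uqcrb*, a small subunit of complex III, and the similar gene *Uqcrbl1* was left out of the comparisons because it names more than 1 gene. It was looked at again because both SeW arrays lay above both TW arrays in data outside the main measurement. The same held for 22.1% of all tested genes, and shared probe sets that lay below TW were not flagged. The signal of the *Uqcrb* probe set was 2417 and 2380 in TW and 2580 and 2625 in SeW, a log2 difference of 0.12. The difference was not tested, and signals from the 2 genes cannot be told apart on this probe set.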

How the results depend on the processing

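Numbers of members passing the test were not stable. Signs were followed only for members called or with an unadjusted p under 0.05 in SeW against TW. Most of these kept their sign, except with the values as deposited. Members past the F test, in SeW against TW and in SeW against DSW1200 numbered 1, 2 and 2 as reported. The counts over all 9258 tested genes, given in brackets, were then 57, 177 and 252. With the values as deposited the members came to 38, 55 and 53 (2766, 4380 and 3738). The 55 and 53 all lay higher in SeW, and neither *Cox5a* nor *Atp5f1e* was among the 38, 55 or 53. After scaling each array by its median the members passing were 0, 0 and 0 (42, 42 and 70). With no filter they were 0, 0 and 1 (1, 12 and 19 of 14217 genes). They were 0, 1 and 1 with the mean of probe sets (12, 62 and 131). With no intensity trend they were 0, 0 and 0 (0, 1 and 1). With only the arrays compared, 0 members passed in SeW against TW (26) and 2, *Atp5f1e* and *Cox5a*, in SeW against DSW1200 (253). With the ratio of beta-actin 3' to 5' signal in the fit, added after seeing the data, the numbers were 0, 0 and 0, and *Ndufaf8* (0.060) and *Ndufb6* (-0.10) reversed in SeW against TW. By a 2-fold criterion in place of the test, 2 members passed in WR, 2 in DSW1200, 0 in SeW against TW and 1 in SeW against DSW1200.

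With the values as deposited, where all genes moved up by a median of 0.38 in WR, 0.92 in SeW and 0.84 in SeW against DSW1200, the members' medians were 0.13, 0.75 and 0.74. In SeW against TW these were then positive: *Atp5f1d* 0.33, *Atp5mpl* 0.54, *Cox5a* 0.017, *Cox7a2l* 0.49, *Ndufa2* 0.34, *Ndufa4* 0.59, *Ndufaf8* 0.46, *Ndufb3* 0.39, *Ndufb7* 0.47, *Ndufs6* 0.58, *Ndufs7* 0.51, *Uqcr11* 0.55, *Uqcrc1* 0.26, *Uqcrh* 0.32 and *Uqcrq* 0.12. All lay below that shift. After that median scaling, the members' median was -0.37 in WR and 0.0056 in SeW against DSW1200. Apart from these shifts of scale, the causes were not tested.

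Leaving out each array in turn gave 0 to 3 members past the F test (3 without TW replicate 1, 0 without any 1 of the WR, DSW1200 or SeW arrays), 0 to 1 in WR and 0 to 1 in DSW1200 (1 each without TW replicate 1, *Ndufaf4*), 0 to 7 in SeW against TW and 0 to 4 in SeW against DSW1200. Over all tested genes, too, the most passed without TW replicate 1, in the F test and in each comparison. Such fits leave 1 array in a group, and these counts were not read as particular to the members. Medians of the members ran from -0.18 to -0.08 in WR, -0.12 to -0.01 in DSW1200 and -0.17 to -0.06 in SeW against TW. In SeW against DSW1200 they ran from -0.13 to 0.016, where the highest was without DSW1200 replicate 2. Arrays of the same number did not deviate together (correlations of -0.06 to 0.04 between groups), so the numbers were not taken to pair the samples. With a replicate block, 0 members passed the F test, 2 SeW against TW and 1 SeW against DSW1200. Of all tested genes, 22, 114 and 116 passed in that order. Array symbols, a restriction to the 71 tested subunits, a stricter filter and an offset of 32 left every count within 1 of the one reported.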

Other observations

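The other probe sets shared by a respiratory gene and a similar gene were not tested either. That of *Atp5mc1* and *Atp5mc1l1* (c subunit of ATP synthase) had signals of 1607 and 1659 in TW, 1263 and 1167 in WR, 1127 and 1448 in DSW1200, with 1299 and 1311 in SeW, so that all 6 other arrays lay below TW. That of *Atp5mc2* and *Atp5mc2l1* had 383 and 414 in TW, 315 and 378 in WR, 257 and 301 in DSW1200, with 407 and 415 in SeW, and the DSW1200 arrays lay lowest. The log2 difference in SeW against TW was -0.04 for *Cox7a2* with *Cox7a2l2*, 0.05 for *Ndufa10* with *Ndufa10l1* and -0.01 for *Ndufs5* with *Ndufs5-ps2*.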
